A study of Homo sapiens with 6 samples.

Results

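The genes described here are those that build fatty acids from acetyl-CoA, lengthen and desaturate them, activate them, and store them as triglyceride. They were taken from a list of 36 genes by matching Ensembl identifiers to gene symbols. The deposited table held 34 of the 36 among its 16949 genes, and all 34 were tested. ACSL5 and THRSP were not analysed here.

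The measurements are RNA-seq of CWR-R1, a human cell line from a prostate cancer that grows without androgens. There are 3 libraries of cells with the SOX2 gene knocked out (SOX2-KO, labelled SOX2 negative) and 3 of cells that keep it (Control, labelled SOX2 positive and titled untreated). SOX2 is a transcription factor of stem and progenitor cells, and the study asked how it bears on the metabolism of prostate cancer cells. The labels do not tell the method of the knockout, the number of clones or the source of the replicates, so every p-value here measures only library-to-library spread, possibly technical. Values are in CPM, the reads of a gene per 1000000 reads over all genes of the table, as the authors deposited them. Group values are the mean ± SD with n = 3 in each group.

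A cell makes fatty acid in the cytosol from acetyl-CoA, which ATP citrate lyase cuts from exported citrate and acetyl-CoA synthetase makes from acetate. Acetyl-CoA carboxylase and fatty acid synthase turn it into palmitate, which elongases of the endoplasmic reticulum lengthen and desaturases provide with double bonds. Acyl-CoA synthetases activate the products, and a chain of acyltransferases and phosphatases ends at the diacylglycerol acyltransferases, which make the triglyceride of lipid droplets. SREBP-1, encoded by SREBF1, is the transcription factor best known for driving these genes, and prostate cancers are known for high synthesis of fatty acids, driven in part by the androgen receptor.

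SOX2 itself had 4.7, 4.56 and 3.83 CPM in SOX2-KO replicates 1, 2 and 3, against 55.7, 54.3 and 55.5 CPM in Control replicates 1, 2 and 3. The estimated depth was 20717787 to 25739758 reads per library, and a floor of 3 reads came to 0.117 to 0.145 CPM, which covers counting error only. No value of the 34 genes was under its floor. All 6 luminal prostate markers had values, and their CPM added up to 3278 to 3483 in SOX2-KO and 2754 to 2795 in Control. Of the stromal markers 2 of 5 had values, COL1A1 and LUM, with summed levels of 2.54 to 3.34 CPM in SOX2-KO and 7.28 to 8.3 CPM in Control. Of the neuroendocrine markers 1 of 3 had values, SYP, with 3.15 to 4.17 CPM in SOX2-KO and 5.7 to 6.29 CPM in Control. The basal markers KRT5, KRT14 and TP63 and the adipocyte markers ADIPOQ, LEP, PLIN1, CIDEC, LPL and FABP4 were not analysed here. The part of these differences in the results was not tested, and in bulk RNA fewer cells of a type and less RNA per cell cannot be told apart. Transcripts of the mitochondrial genome took 1.87%, 1.68% and 3.44% of the reads in SOX2-KO replicates 1, 2 and 3, against 3.45%, 3.23% and 3.34% in Control replicates 1, 2 and 3. SOX2-KO replicates 1 and 2 lay below every Control library, and SOX2-KO replicate 3 lay within the Control range. Without SOX2-KO replicate 3, all 27 calls below were kept. That fit keeps the SOX2-KO libraries that differ from Control in this share, so the part of this difference in the results was not tested.

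Most of the 34 genes were higher in SOX2-KO, with the largest rises in ACSS2, ELOVL5 and SCD, each close to a doubling in mean CPM. The 34 were chosen with earlier results of these data known. Of 41 other genes of the same pathway tested, 14 rose and 12 fell. SCD5, AGPAT2 and ACACB fell by at least 1.5-fold on the log2(CPM + 1) scale, and each of them has a related gene that rose (SCD, AGPAT1 and ACACA). Of the 34 genes, 21 rose and 6 fell at an adjusted p under 0.05 (limma on log2(CPM + 1), adjusted over all 15927 genes tested), and 7 were not called. Over all genes tested, 25.0% rose and 32.9% fell, and 57.8% were called either way, so that a call by itself is common in these data. Calls are also more frequent at higher levels, with 67.1% of the 10658 genes of at least 10 CPM called, and the 34 genes had mean levels of 2.66 to 5651 CPM, with a median of 51.2 CPM. The median log2 fold change was 0.33 over the 34 genes and -0.06 over all genes tested. Among the 34, 9 rose and 3 fell by at least 1.5-fold on the log2(CPM + 1) scale, against 7.57% and 11.0% of all genes tested (18.6% in either direction). In 23 of them every SOX2-KO value lay above every Control value, and in 7 every SOX2-KO value lay below, against 28.2% and 36.3% of all genes tested (64.5% in either direction). Together the 34 genes took 1.28%, 1.29% and 1.23% of the reads in SOX2-KO replicates 1, 2 and 3, against 0.755%, 0.752% and 0.745% in Control replicates 1, 2 and 3. A test against a minimum fold of 1.5 left 4 genes higher (ACSS2, SCD, ELOVL5 and GPAM) and 1 lower (SCD5).

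**Figure D1:**
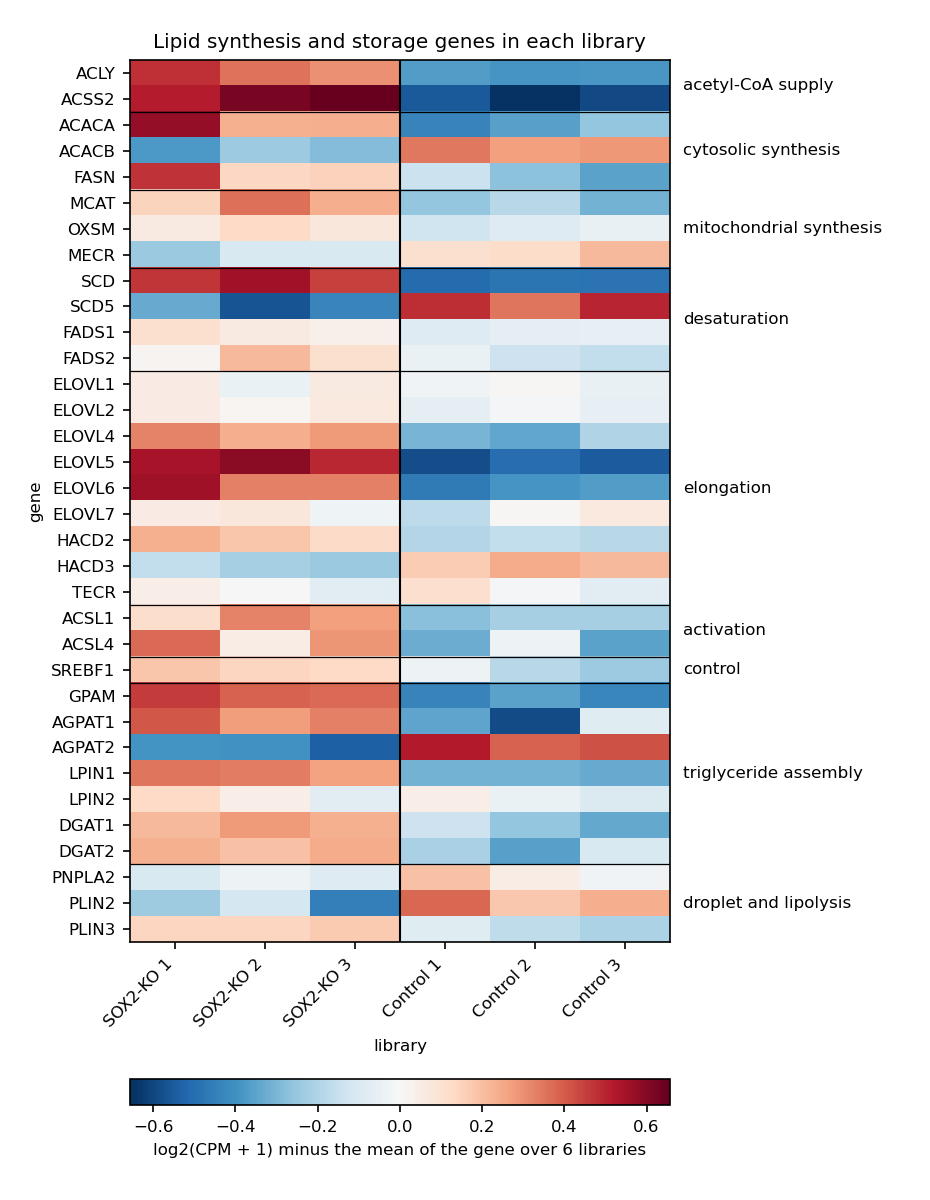
Level of each of the 34 genes (rows, grouped by pathway step) in each library (columns, SOX2-KO left of Control), as log2(CPM + 1) minus the mean of that gene over the 6 libraries, on the colour scale below. Red in all 3 SOX2-KO columns and blue in all 3 Control columns marks a gene such as ACSS2, ELOVL5 or SCD, and SCD5 and AGPAT2 show the reverse.

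The stretches upstream of 4 genes are shown because these had the largest changes among the 17 genes with 1 annotated start in RefSeq, 2 of them higher and 2 lower in SOX2-KO. They run over the 250 bases before the start, 5′ to 3′ on the strand of the gene, from RefSeq on GRCh38.p14. Capitals mark the motifs searched on both strands, which were CCAAT (the box bound by NF-Y, a partner of SREBP, which reads ATTGG on the other strand), CACGTG (an E-box), TCACNCCAC (the core of a sterol regulatory element), and CATTGT and CTTTGT (cores bound by SOX factors).
ELOVL5 (chr6:53348951-53349200, minus strand): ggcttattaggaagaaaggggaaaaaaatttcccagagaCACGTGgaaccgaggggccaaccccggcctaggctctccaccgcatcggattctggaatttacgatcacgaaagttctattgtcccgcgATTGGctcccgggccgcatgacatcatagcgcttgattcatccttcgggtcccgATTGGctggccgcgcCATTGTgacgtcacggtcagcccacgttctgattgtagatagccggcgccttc
SCD (chr10:100346983-100347232, plus strand): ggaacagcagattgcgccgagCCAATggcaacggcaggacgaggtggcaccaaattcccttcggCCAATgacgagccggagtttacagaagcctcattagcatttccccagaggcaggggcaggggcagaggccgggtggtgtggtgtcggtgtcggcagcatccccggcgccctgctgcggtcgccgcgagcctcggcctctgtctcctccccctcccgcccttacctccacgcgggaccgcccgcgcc
SCD5 (chr4:82798797-82799046, minus strand): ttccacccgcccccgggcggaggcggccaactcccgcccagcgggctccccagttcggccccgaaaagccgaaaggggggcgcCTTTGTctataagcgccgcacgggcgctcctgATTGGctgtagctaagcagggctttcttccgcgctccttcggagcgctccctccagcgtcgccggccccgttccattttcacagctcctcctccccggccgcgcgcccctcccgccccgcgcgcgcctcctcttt
AGPAT2 (chr9:136687458-136687707, minus strand): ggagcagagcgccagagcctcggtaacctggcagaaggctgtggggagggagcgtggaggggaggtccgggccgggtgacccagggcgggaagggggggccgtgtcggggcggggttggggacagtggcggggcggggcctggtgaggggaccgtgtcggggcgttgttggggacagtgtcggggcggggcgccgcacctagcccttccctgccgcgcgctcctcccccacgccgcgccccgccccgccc
The ELOVL5 stretch held CACGTG beginning 211 bases before the start, CCAAT at 122 and 68 and CATTGT at 53, and SCD held CCAAT at 229 and 186 bases before the start. In SCD5, CTTTGT began 167 and CCAAT 135 bases before the start, and none of the 5 motifs stood in the AGPAT2 stretch. Starts differ between annotations, and GENCODE 29 counts 229 of these bases as part of the gene for ELOVL5, 109 for SCD, 61 for SCD5 and 0 for AGPAT2.

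RefSeq gave 51 upstream stretches for 30 of the 34 genes, all but FASN, OXSM, DGAT1 and DGAT2, and several starts of 1 gene can share bases. CCAAT stood in 19 of the 51 (37.3%), against 32.0% of all 35116 stretches of the same length. CACGTG stood in 4 (7.84%, against 6.34% of all), and TCACNCCAC in 2 (3.92%, against 0.883%), those of PNPLA2 and of 1 start of ACSL1. The SOX cores stood in 5 (CATTGT, 9.8%, against 9.29%) and 7 (CTTTGT, 13.7% in both). These counts describe letters in a window and say nothing of binding.

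Both genes of acetyl-CoA supply rose. ACSS2, which makes acetyl-CoA from acetate and lies on chromosome 20, positions 34872146 to 34927962 (GRCh38), had 189, 204 and 209 CPM in SOX2-KO replicates 1, 2 and 3, against 89.8, 83.9 and 87.1 CPM in Control replicates 1, 2 and 3. All SOX2-KO values were more than double the Control values, and the mean was 2.3-fold higher (log2 fold change 1.19 ± 0.049, adjusted p = 3.05e-07; ± is the standard error here and below). ACLY, the citrate lyase on chromosome 17, positions 41866908 to 41930542, had 510.0, 469.6 and 451 CPM in the SOX2-KO libraries, against 283, 279.7 and 281 CPM in the Control libraries. It rose 1.69-fold (log2 fold change 0.76 ± 0.049, adjusted p = 3.31e-06), with an SD of 1.93 CPM between the Control libraries, and SOX2-KO replicate 1 was the highest. The median log2 fold change of the other genes within 5 Mb was -0.19 around ACSS2 and 0.069 around ACLY.

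In the cytosolic synthesis step, the main carboxylase and the synthase rose and the second carboxylase fell. FASN, the multi-domain enzyme that builds palmitate, had 921, 729.5 and 737 CPM in SOX2-KO replicates 1, 2 and 3, against 602, 549.6 and 521 CPM in Control replicates 1, 2 and 3. The groups did not overlap, and replicate 1 stood above the other SOX2-KO libraries. FASN rose 1.43-fold (log2 fold change 0.51 ± 0.092, adjusted p = 0.0013), and without SOX2-KO replicate 1 its log2 fold change was 0.40 (adjusted p = 7.35e-04).

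ACACA encodes acetyl-CoA carboxylase 1, which supplies malonyl-CoA for synthesis in the cytosol. It had 378, 298 and 299 CPM in the SOX2-KO libraries, against 187, 197 and 212 CPM in the Control libraries, again with SOX2-KO replicate 1 highest and no overlap. ACACA rose 1.63-fold (log2 fold change 0.70 ± 0.090, adjusted p = 1.77e-04; log2 0.59 without that library). ACACB encodes acetyl-CoA carboxylase 2, which sits at mitochondria and whose malonyl-CoA restrains the entry of fatty acids for oxidation. It had 18.4, 20.4 and 19.7 CPM in the SOX2-KO libraries, against 31, 29.3 and 29.7 CPM in the Control libraries, so all SOX2-KO values were below all Control values, and it fell 1.54-fold (log2 fold change -0.60 ± 0.062, adjusted p = 4.88e-05). Its neighbours within 5 Mb had a median log2 fold change of -0.27, and with each library's neighbourhood median subtracted ACACB was still called lower (log2 -0.30, adjusted p = 0.00303).

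Mitochondria have their own synthesis route, which makes among other things the precursor of lipoic acid, and its genes went different ways. MCAT, the malonyl transferase of this route, rose 1.44-fold, with 26.2 ± 2.03 CPM in SOX2-KO and 18.3 ± 0.843 CPM in Control (log2 0.50, adjusted p = 4.08e-04). MECR, the last reductase of each cycle, fell 1.24-fold, with 20.3 ± 1.19 CPM in SOX2-KO and 25.1 ± 1.06 CPM in Control (log2 -0.29, adjusted p = 0.00509). OXSM, the condensing enzyme, was not called at 16.9 ± 0.475 CPM in SOX2-KO and 14.9 ± 0.443 CPM in Control (95% interval of the log2 fold change 0.020 to 0.33, adjusted p = 0.053), although the groups did not overlap. It passed the threshold under 5 of the alternatives, among them median-ratio scaling (adjusted p = 0.0191). NGLY1, a gene on the other strand with rows of its own in the table, shares 21.6% of the exonic bases of OXSM, which makes its estimate uncertain.

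**Figure D2:**
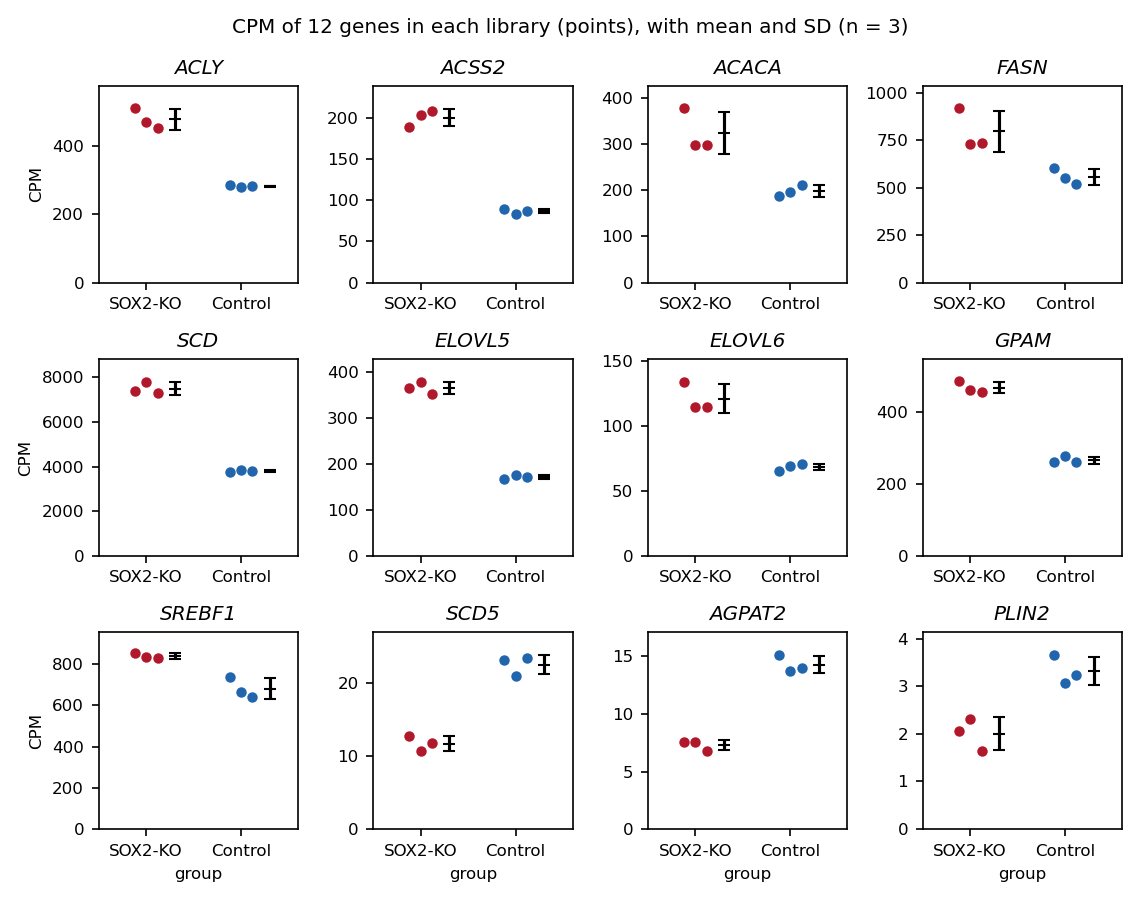
CPM (vertical axes from 0) of 12 genes in each library, SOX2-KO in red left of Control in blue, with the mean and SD of n = 3 in black. ACLY, ACSS2, ACACA, FASN, SCD, ELOVL5, ELOVL6, GPAM and SREBF1 are higher in every SOX2-KO library than in any Control library, and SCD5, AGPAT2 and PLIN2 are lower.

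SCD dominated the set by read share. It encodes stearoyl-CoA desaturase, which places the first double bond into saturated fatty acids to give oleate and palmitoleate, and lies on chromosome 10, positions 100347124 to 100364834. It had 7389.8, 7809 and 7297 CPM in SOX2-KO replicates 1, 2 and 3, against 3767, 3826 and 3817 CPM in Control replicates 1, 2 and 3. All SOX2-KO libraries were close to double the Control libraries, and SCD rose 1.97-fold (log2 fold change 0.98 ± 0.062, adjusted p = 3.02e-06). Only 2 genes had more reads than SCD in each SOX2-KO library, against 9 in each Control library. SCD alone took 59.2% ± 1.41 of the reads on the 34 genes in SOX2-KO and 50.7% ± 0.709 in Control. Without SCD, the other 33 genes added up to 5170.3 ± 215 CPM in SOX2-KO and 3705 ± 77 CPM in Control.

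The second desaturase of this kind moved the other way. SCD5, a paralogue best known from brain and pancreas, lies on chromosome 4, positions 82629539 to 82798857 and had 12.7, 10.6 and 11.8 CPM in the SOX2-KO libraries, against 23.1, 21 and 23.4 CPM in the Control libraries. The groups did not overlap, and SCD5 fell 1.92-fold (log2 fold change -0.89 ± 0.085, adjusted p = 2.85e-05). Neighbours of SCD5 within 5 Mb had a median log2 fold change of 0.0027, those of SCD one of 0.050. FADS1 and FADS2, the delta-5 and delta-6 desaturases that make polyunsaturated fatty acids, rose by small amounts. FADS2 had 62.6 ± 4.29 CPM in SOX2-KO and 53.4 ± 2.35 CPM in Control (1.17-fold, adjusted p = 0.0104) and FADS1 had 216 ± 5.22 CPM in SOX2-KO and 197 ± 2.36 CPM in Control (1.1-fold, adjusted p = 0.0113). The FADS1 call ended with the neighbourhood subtracted (log2 0.12, adjusted p = 0.0600), and the pair, on opposite strands, share 490 exonic bases, 4.79% of those of FADS1 and 4.44% of those of FADS2.

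Of the 6 elongase genes ELOVL5, ELOVL6 and ELOVL4 rose and none fell. ELOVL5 acts on polyunsaturated chains and lies on chromosome 6, positions 53267398 to 53349179. It had 364, 378 and 353 CPM in SOX2-KO replicates 1, 2 and 3, against 167, 177 and 171 CPM in Control replicates 1, 2 and 3. The SOX2-KO values were all about double, and ELOVL5 rose 2.13-fold (log2 fold change 1.09 ± 0.042, adjusted p = 2.31e-07). ELOVL6, which lengthens palmitate to stearate, had 134, 115 and 114 CPM in the SOX2-KO libraries, against 65.6, 69.4 and 70.4 CPM in the Control libraries, without overlap. It rose 1.77-fold (log2 fold change 0.81 ± 0.066, adjusted p = 1.17e-05), with SOX2-KO replicate 1 highest. ELOVL4, an elongase of very long chains, rose 1.5-fold to a mean of 25.7 ± 0.843 CPM in SOX2-KO, against 17.1 ± 0.917 CPM in Control (log2 0.56, adjusted p = 1.01e-04).

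The remaining elongases were not called. ELOVL1, which acts on saturated very long chains, had 65.3 ± 2.6 CPM in SOX2-KO and 63.3 ± 1.24 CPM in Control (95% interval of the log2 fold change -0.060 to 0.15, adjusted p = 0.438). ELOVL7 had 45.4 ± 1.74 CPM in SOX2-KO and 43.5 ± 3.72 CPM in Control (95% interval of the log2 fold change -0.089 to 0.22, adjusted p = 0.441), and ELOVL2, which acts on polyunsaturated chains, had 34 ± 0.607 CPM in SOX2-KO and 32 ± 0.62 CPM in Control (95% interval of the log2 fold change -0.027 to 0.20, adjusted p = 0.172). The SOX2-KO values of ELOVL2 lay just above the Control values, and its neighbours had a median log2 fold change of 0.22. ELOVL2 was called higher with median-ratio scaling (adjusted p = 0.0428) and quantile normalisation (adjusted p = 0.0209), and its sign turned with the neighbourhood subtracted (log2 -0.057).

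Per kilobase of exon in GENCODE 29, ELOVL5 had the highest level of the 6 elongases in both groups. Its level was 95.7 CPM per kb in SOX2-KO and 44.9 in Control, and ELOVL1 followed with 26.1 in SOX2-KO and 25.3 in Control. In SOX2-KO, ELOVL6 came next with 18.4, 15.7 and 15.7 CPM per kb in the 3 libraries, all above ELOVL7 with 10.1, 10.2 and 9.5. In Control these neighbours in the order were not separated, with 8.99, 9.52 and 9.65 CPM per kb for ELOVL6 and 8.59, 9.74 and 10.2 for ELOVL7. ELOVL2 and ELOVL4 came last, with overlapping levels in SOX2-KO (8.52 and 8.44 CPM per kb on average), while ELOVL4 was the lowest in Control (8.01 and 5.61 on average). The length counts every annotated exon, whether these cells use it or not.

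The other enzymes of the elongation cycle did not move as a block. HACD2 and HACD3 encode dehydratases of the third step. HACD2 rose 1.29-fold, with 156 ± 5.87 CPM in SOX2-KO and 121 ± 1.3 CPM in Control (log2 0.36, adjusted p = 7.15e-05). HACD3 fell 1.33-fold, with 117 ± 3.36 CPM in SOX2-KO and 157 ± 4.08 CPM in Control (log2 -0.41, adjusted p = 3.10e-05), in a neighbourhood with a median log2 fold change of -0.30. With that neighbourhood subtracted HACD3 was still called, at a smaller log2 fold change of -0.14 (adjusted p = 0.0195). TECR, the reductase that closes the cycle, was not called, at 97.7 ± 3.83 CPM in SOX2-KO and 99 ± 6.41 CPM in Control (95% interval of the log2 fold change -0.14 to 0.11, adjusted p = 0.804), and its values overlapped. Its neighbours had a median log2 fold change of -0.27, and with this subtracted TECR was called higher (log2 0.28, adjusted p = 7.54e-04).

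Both acyl-CoA synthetase genes tested among the 34 rose. Of the further ones given below, ACSL3 rose and ACSL6 was not called. ACSL1, which feeds fatty acids to storage or oxidation depending on the tissue, rose 1.39-fold, with 299 ± 22 CPM in SOX2-KO and 214 ± 4.85 CPM in Control (log2 0.47, adjusted p = 9.13e-05). ACSL4, which prefers arachidonate, rose 1.43-fold, with 13.3 ± 1.61 CPM in SOX2-KO and 9.32 ± 1.3 CPM in Control (log2 0.47, adjusted p = 0.00841). The lowest SOX2-KO value of ACSL4, 11.5 CPM, was close to the highest Control value, 10.8 CPM. Its call ended with the neighbourhood subtracted (log2 0.27, adjusted p = 0.0707).

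**Figure D3:**
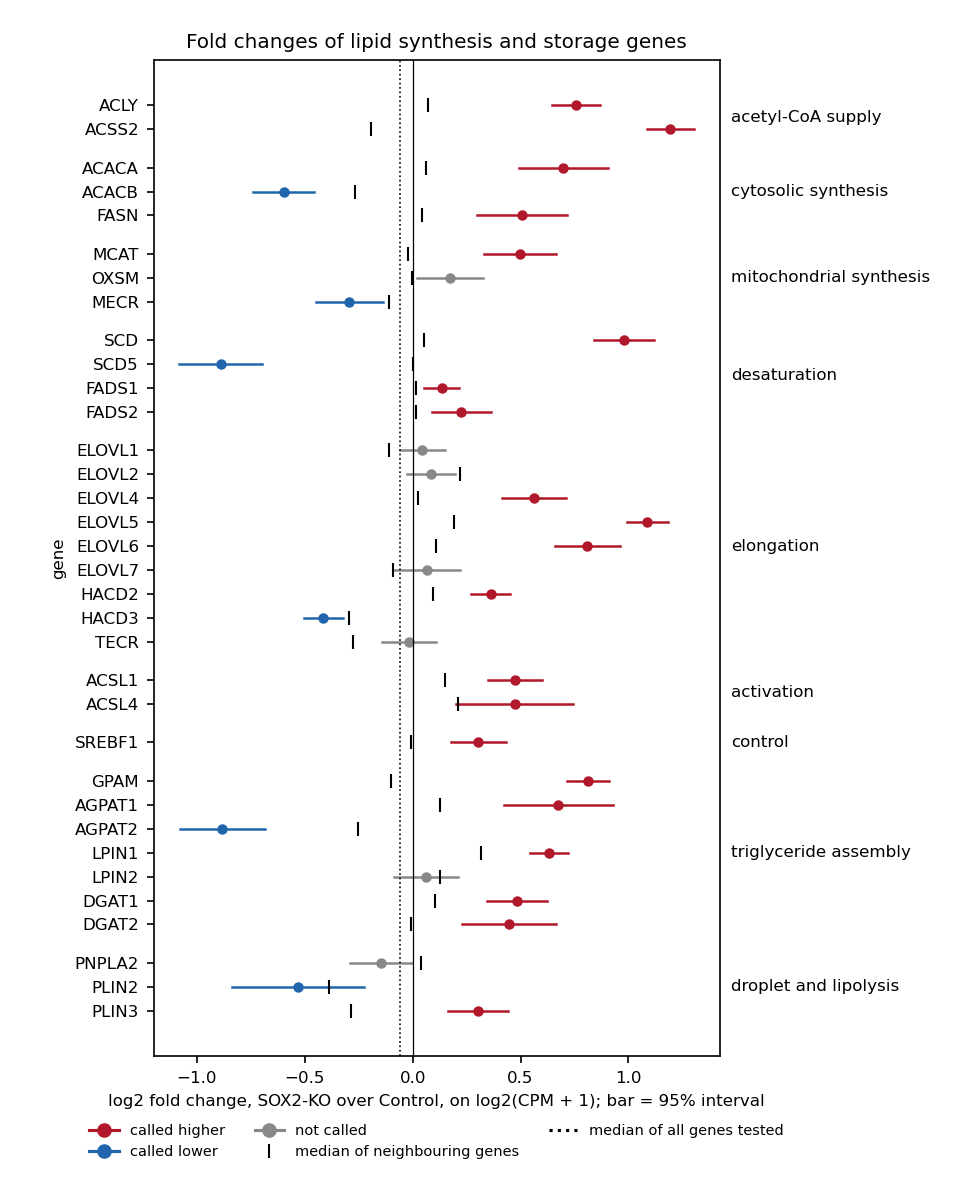
Log2 fold change of SOX2-KO over Control on the log2(CPM + 1) scale (horizontal axis) for the 34 genes by pathway step, with the 95% interval of the limma fit (bars). Red points were called higher, blue points lower and grey points not called. Black ticks give the median of the other genes within 5 Mb and the dotted line the median of all genes tested, -0.06. Most points lie right of both marks, with SCD5, AGPAT2 and ACACB farthest to the left.

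SREBF1, the gene of SREBP-1, rose, by a smaller fold than ACLY, ACSS2, ACACA, FASN or SCD. It had 855, 832 and 827 CPM in SOX2-KO replicates 1, 2 and 3, against 738, 664 and 639 CPM in Control replicates 1, 2 and 3, with no overlap. The rise was 1.23-fold (log2 fold change 0.30 ± 0.056, adjusted p = 0.00151). An mRNA level does not show how much of the protein is processed to its active form. RAI1, on the other strand, shares 6.92% of the exonic bases of SREBF1.

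Of the 34 genes, 7 belong to triglyceride assembly, of which 5 rose and 1 fell (85.7% called, against 57.8% of all genes tested). GPAM of the first step and DGAT1 and DGAT2 of the last were among those that rose. Of the other glycerol-3-phosphate acyltransferase genes, given below, GPAT4 rose and GPAT2 and GPAT3 fell. GPAM encodes the mitochondrial glycerol-3-phosphate acyltransferase that starts the chain, and lies on chromosome 10, positions 112149864 to 112215377. It had 486, 462 and 457 CPM in SOX2-KO replicates 1, 2 and 3, against 259.6, 276 and 262 CPM in Control replicates 1, 2 and 3, so all SOX2-KO libraries were well above all Control libraries. GPAM rose 1.76-fold (log2 fold change 0.81 ± 0.042, adjusted p = 1.15e-06). Its neighbours had a median log2 fold change of -0.10.

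For the second acyltransferase step the 34 genes hold the related genes AGPAT1 and AGPAT2, which moved in opposite directions. AGPAT3 and AGPAT5 of the same family, given below, had more reads than either. AGPAT3 had 128 CPM in SOX2-KO and 97.8 CPM in Control, and AGPAT5 had 118 CPM in SOX2-KO and 109.7 CPM in Control. AGPAT2, the isoenzyme needed for normal fat tissue in humans, lies on chromosome 9, positions 136673143 to 136687423 and had 7.56, 7.52 and 6.76 CPM in the SOX2-KO libraries, against 15.1, 13.7 and 14 CPM in the Control libraries. It fell 1.96-fold with no overlap (log2 fold change -0.88 ± 0.087, adjusted p = 3.35e-05), and stayed lower with its neighbourhood subtracted (log2 -0.63, adjusted p = 2.12e-04). AGPAT1 had 50.7, 46.2 and 48 CPM in the SOX2-KO libraries, against 29.7, 25 and 35.9 CPM in the Control libraries, the widest spread between Control libraries of the genes given by library here relative to the mean. It was called higher, 1.6-fold (log2 fold change 0.67 ± 0.11, adjusted p = 7.75e-04). The readthrough gene PPT2-EGFL8 on the other strand shares 29.9% of the exonic bases of AGPAT1, so its estimate is uncertain.

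LPIN1 and LPIN2 encode lipins, phosphatases that make diacylglycerol. LPIN1 had 134, 133 and 126 CPM in the SOX2-KO libraries, against 84.5, 84.4 and 83.3 CPM in the Control libraries, and rose 1.56-fold (log2 fold change 0.63 ± 0.039, adjusted p = 2.78e-06). Its neighbours had a median log2 fold change of 0.32, and with this subtracted the rise was smaller but still called (log2 0.30, adjusted p = 1.87e-04). LPIN2 was not called, at 44.2 ± 3.2 CPM in SOX2-KO and 42.2 ± 2.13 CPM in Control (95% interval of the log2 fold change -0.085 to 0.21, adjusted p = 0.435), and its groups overlapped.

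DGAT1 and DGAT2 are unrelated enzymes for the last step, the making of triglyceride, and both rose 1.41-fold. DGAT1 had 47.7, 50.02 and 48.4 CPM in the SOX2-KO libraries, against 37.2, 34.3 and 32.2 CPM in the Control libraries, all higher than the Control libraries (log2 fold change 0.48 ± 0.060, adjusted p = 1.43e-04). DGAT2 had 10.3, 10.02 and 10.4 CPM in the SOX2-KO libraries, against 7.33, 6.52 and 7.98 CPM in the Control libraries, again without overlap (log2 fold change 0.45 ± 0.096, adjusted p = 0.00334). AC233992.1, on the same strand, shares 10.7% of the exonic bases of DGAT1, and HSF1, on the other strand, shares 3.36%.

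The genes of the droplet itself showed no common direction. PLIN2, the droplet coat protein found in most cells, was low. It had 2.05, 2.31 and 1.63 CPM in the SOX2-KO libraries, against 3.65, 3.06 and 3.24 CPM in the Control libraries, without overlap and above the floor, and fell 1.66-fold (log2 fold change -0.53 ± 0.13, adjusted p = 0.00836). Its neighbours had a median log2 fold change of -0.39, and the call ended with the neighbourhood subtracted (log2 -0.17, adjusted p = 0.345). PLIN3, a coat protein that moves between cytosol and droplets, rose 1.25-fold, with 24.7 ± 0.299 CPM in SOX2-KO and 19.8 ± 0.935 CPM in Control (log2 0.30, adjusted p = 0.00247), although its neighbours had a median of -0.29. The antisense gene AC027319.1 shares 17.8% of its exonic bases. PNPLA2, the lipase that starts the breakdown of triglyceride, was not called, at 36.6 ± 0.888 CPM in SOX2-KO and 40.6 ± 3.16 CPM in Control (95% interval of the log2 fold change -0.29 to -0.0038, adjusted p = 0.0738). PNPLA2 was called lower without Control replicate 3 (log2 -0.19, adjusted p = 0.0391) and with the neighbourhood subtracted (log2 -0.21, adjusted p = 0.00987). The antisense gene AP006621.1 shares 10.4% of the exonic bases of PNPLA2.

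For 6 pairs of genes grouped under 1 step here, the ratio of their CPM was taken within each library, which does not depend on library scaling. FADS1 and FADS2 are both grouped under desaturation, but as delta-5 and delta-6 desaturases they do not carry out the same reaction. SCD5 reads were 0.172, 0.136 and 0.161% of SCD reads in SOX2-KO replicates 1, 2 and 3, against 0.614, 0.548 and 0.613% in Control replicates 1, 2 and 3. The ratio was 3.79-fold lower in SOX2-KO. ACACB reads were 4.88, 6.83 and 6.6% of ACACA reads in SOX2-KO, against 16.6, 14.9 and 14% in Control, 2.5-fold lower. For LPIN2 over LPIN1 the values were 35.3, 33.5 and 32.4% in SOX2-KO, against 52.7, 49.5 and 48.4% in Control, 1.49-fold lower.

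In these 3 pairs the groups did not overlap, and an exact permutation test, two-sided, could reach no less than its value of p = 0.1 with 3 against 3 libraries (0.2 adjusted over the 6 pairs compared). The other pairs overlapped. DGAT2 was 21.1% ± 0.906 of DGAT1 in SOX2-KO and 21.2% ± 3.13 in Control (exact p = 1). FADS2 was 28.9% ± 2.4 of FADS1 in SOX2-KO and 27.1% ± 1.53 in Control (exact p = 0.3), and ACSL4 was 4.5% ± 0.852 of ACSL1 in SOX2-KO and 4.35% ± 0.558 in Control (exact p = 0.9). Per kilobase of exon, SCD5 stood at 0.195% of the level of SCD in SOX2-KO and 0.739% in Control, and ACACB at 5.39% of ACACA in SOX2-KO and 13.5% in Control.

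**Figure D4:**
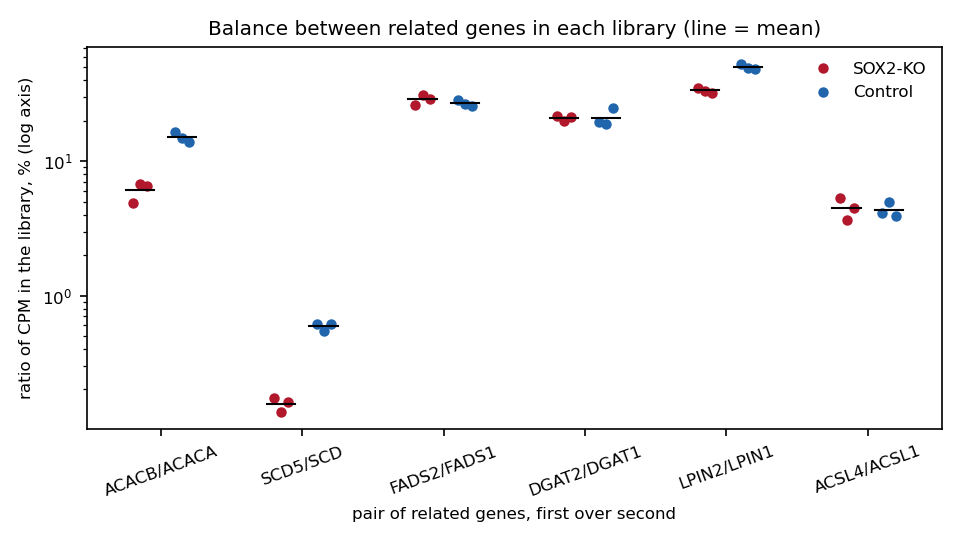
Ratio of CPM of 2 genes that share a step within each library, in percent on a log axis, for 6 pairs (horizontal axis), with SOX2-KO in red left of Control in blue and the mean as a line. The SOX2-KO points lie below all Control points for ACACB/ACACA, SCD5/SCD and LPIN2/LPIN1, and the groups overlap for the other pairs.

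Other genes of the same pathway, from 56 listed by function, moved in both directions. Of the 41 tested, 14 rose, 12 fell and 15 were not called, a share of 63.4% called, against 57.8% of all genes tested. Their median log2 fold change was 0.06.

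Among other genes of synthesis and supply, 2 of the 4 tested fell and 2 were not called (50% called, against 57.8% of all genes tested). ME1, the cytosolic malic enzyme that yields NADPH, fell 2.18-fold at a low level (0.703 ± 0.24 CPM in SOX2-KO and 1.53 ± 0.186 CPM in Control; log2 -0.58, adjusted p = 0.0119). MID1IP1, a partner of acetyl-CoA carboxylase, fell to 25.1 ± 1.98 CPM in SOX2-KO, against 29.7 ± 1.22 CPM in Control (adjusted p = 0.0179). The MID1IP1 call ended with the neighbourhood subtracted (log2 -0.023, adjusted p = 0.831), with median-ratio scaling (adjusted p = 0.0715), with quantile normalisation (adjusted p = 0.105), and on leaving out SOX2-KO replicate 3 (0.0535), Control replicate 1 (0.059) or Control replicate 2 (0.0577). AASDHPPT, which primes acyl carrier proteins, had 99.9 ± 1.83 CPM in SOX2-KO and 105 ± 4.45 CPM in Control and was not called, but with the neighbourhood subtracted its direction turned and it was called higher (log2 0.14, adjusted p = 0.0403). The citrate carrier gene SLC25A1, named after its values were seen, was not called (85.1 ± 2.09 CPM in SOX2-KO and 92.4 ± 4.36 CPM in Control; adjusted p = 0.0557), although the groups did not overlap. SLC25A1 was called lower with a filter of 5 CPM (adjusted p = 0.0497) and with the neighbourhood subtracted (log2 -0.14, adjusted p = 0.0449).

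In mitochondrial synthesis 2 of 6 genes rose and 4 were not called (33.3% called, against 57.8% of all genes tested). CBR4, part of the ketoacyl reductase of that route, rose 1.59-fold (27 ± 1.46 CPM in SOX2-KO and 17 ± 1.5 CPM in Control; log2 0.64, adjusted p = 1.38e-04). NDUFAB1, its acyl carrier protein and also a complex I subunit, rose 1.11-fold (65.5 ± 1.28 CPM in SOX2-KO and 58.8 ± 2.13 CPM in Control; log2 0.15, adjusted p = 0.0162), a call that ended without Control replicate 2 (adjusted p = 0.0661) or Control replicate 3 (adjusted p = 0.0593). LIAS, the lipoic acid synthase, had 18.2 ± 1.11 CPM in SOX2-KO and 16.3 ± 2.04 CPM in Control and was not called.

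In elongation, desaturation and activation 2 of 4 genes rose and 1 fell (75% called, against 57.8% of all genes tested). HSD17B12, the ketoreductase of the elongation cycle, rose 1.26-fold (124 ± 1.75 CPM in SOX2-KO and 98.3 ± 3.43 CPM in Control; log2 0.33, adjusted p = 1.22e-04), and ACSL3, an acyl-CoA synthetase of droplets, rose 1.46-fold (197 ± 14.5 CPM in SOX2-KO and 134 ± 2.78 CPM in Control; log2 0.54, adjusted p = 3.53e-05). FADS3, the neighbour of FADS2, fell 2.09-fold (7.8 ± 0.496 CPM in SOX2-KO and 16.3 ± 1.04 CPM in Control; log2 -0.98, adjusted p = 1.88e-05), and ACSL6 had 15.4 ± 0.896 CPM in SOX2-KO and 15.7 ± 0.231 CPM in Control and was not called.

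Among 12 genes that control SREBP and lipogenesis, 5 rose and 3 fell (66.7% called, against 57.8% of all genes tested). INSIG1, which holds SREBP back in the endoplasmic reticulum and is itself an SREBP target, had 122, 101 and 102 CPM in the SOX2-KO libraries, against 61.8, 68.8 and 61.6 CPM in the Control libraries. It rose 1.69-fold (log2 0.74, adjusted p = 5.17e-05), with SOX2-KO replicate 1 highest, as in FASN and ACACA. SREBF2, the gene of the main SREBP of cholesterol synthesis, rose 1.22-fold (312 ± 11.9 CPM in SOX2-KO and 256 ± 7.86 CPM in Control; log2 0.28, adjusted p = 4.45e-04). SCAP, the escort protein of SREBP, fell 1.27-fold (90.8 ± 1.08 CPM in SOX2-KO and 115 ± 5.8 CPM in Control; log2 -0.34, adjusted p = 2.18e-04). PRKAA2, a catalytic subunit gene of AMPK, the kinase that inhibits acetyl-CoA carboxylase, fell 1.89-fold (11.3 ± 0.672 CPM in SOX2-KO and 21.4 ± 0.817 CPM in Control; log2 -0.86, adjusted p = 1.57e-05). PRKAA1, the gene of the other catalytic subunit, was named after its values were seen and rose 1.14-fold (139 ± 3.51 CPM in SOX2-KO and 122 ± 5.31 CPM in Control; log2 0.19, adjusted p = 0.00567). MBTPS1, the protease of the first cut of SREBP, had 125 ± 2.09 CPM in SOX2-KO and 119 ± 2.89 CPM in Control and was not called, although it was called higher with median-ratio scaling (adjusted p = 0.0249) and its sign turned with the neighbourhood subtracted (log2 -0.079, adjusted p = 0.122). MLXIPL, the gene of the glucose-responsive lipogenic factor ChREBP, is named after its values were seen. It fell 1.6-fold (38 ± 5.6 CPM in SOX2-KO and 61 ± 5.79 CPM in Control; log2 -0.67, adjusted p = 4.83e-04).

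All 6 other assembly genes tested were called, 3 higher and 3 lower (against 57.8% of all genes tested), but 1 of the calls was marginal. AGPAT5, a further acyltransferase gene of the AGPAT family and named after its values were seen, had 118 ± 1.64 CPM in SOX2-KO and 109.7 ± 3.48 CPM in Control (log2 0.10, adjusted p = 0.0496). Its call ended with each library left out (adjusted p from 0.0633 to 0.133), with the replicate block (0.093), with both other pseudocounts, without a filter, under limma-voom and against a minimum fold, and its sign turned with the neighbourhood subtracted (log2 -0.070, adjusted p = 0.186). AGPAT3 rose 1.31-fold (128 ± 4.9 CPM in SOX2-KO and 97.8 ± 0.779 CPM in Control; log2 0.38, adjusted p = 5.70e-05), and GPAT4, a glycerol-3-phosphate acyltransferase of the endoplasmic reticulum, rose 1.1-fold (77.7 ± 1.97 CPM in SOX2-KO and 70.7 ± 0.709 CPM in Control; log2 0.13, adjusted p = 0.0187). The GPAT4 call ended with the neighbourhood subtracted (log2 0.0080, adjusted p = 0.887) and on leaving out SOX2-KO replicate 3 (0.0668), Control replicate 2 (0.0575) or Control replicate 3 (0.0632). GPAT3, which catalyses the same step, fell 1.78-fold (10.8 ± 0.464 CPM in SOX2-KO and 19.3 ± 0.746 CPM in Control; log2 -0.78, adjusted p = 2.60e-05), as did the lipin gene LPIN3 (1.65-fold, 9.52 ± 1.39 CPM in SOX2-KO and 15.7 ± 0.91 CPM in Control; log2 -0.67, adjusted p = 6.00e-04). GPAT2, named after its values were seen, fell 1.16-fold (45.6 ± 1.76 CPM in SOX2-KO and 53.1 ± 3.34 CPM in Control, log2 -0.21, adjusted p = 0.0120). The GPAT2 call ended with quantile normalisation (adjusted p = 0.0568).

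Of 9 other droplet and lipolysis genes, 2 rose and 3 fell (55.6% called, against 57.8% of all genes tested). MGLL, the monoacylglycerol lipase that completes the breakdown of triglyceride, had 2.06, 2.29 and 1.81 CPM in the SOX2-KO libraries, against 8.06, 7.67 and 8.2 CPM in the Control libraries. It fell 3.88-fold (log2 fold change -1.56 ± 0.11, adjusted p = 5.73e-06), the largest change of the pathway genes tested here, and its neighbours had a median log2 fold change of 0.067. PLIN4, a droplet coat protein, fell 2.53-fold (2.48 ± 0.352 CPM in SOX2-KO and 6.28 ± 0.191 CPM in Control; log2 -1.07, adjusted p = 6.63e-05). ABHD5, the activator of the lipase encoded by PNPLA2, rose 1.41-fold (25.9 ± 2.69 CPM in SOX2-KO and 18.4 ± 0.323 CPM in Control; log2 0.46, adjusted p = 0.00108), and HILPDA, an inhibitor of that lipase, rose 1.15-fold (38.6 ± 2.3 CPM in SOX2-KO and 33.7 ± 1.58 CPM in Control; log2 0.19, adjusted p = 0.0261). The HILPDA call ended without SOX2-KO replicate 3 (adjusted p = 0.0882) or Control replicate 1 (adjusted p = 0.0829). FITM2, a protein of droplet formation, had 20.5 ± 1.52 CPM in SOX2-KO and 20.1 ± 2.31 CPM in Control and was not called, although it was called higher with the neighbourhood subtracted (log2 0.25, adjusted p = 0.0448).

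**Figure D5:**
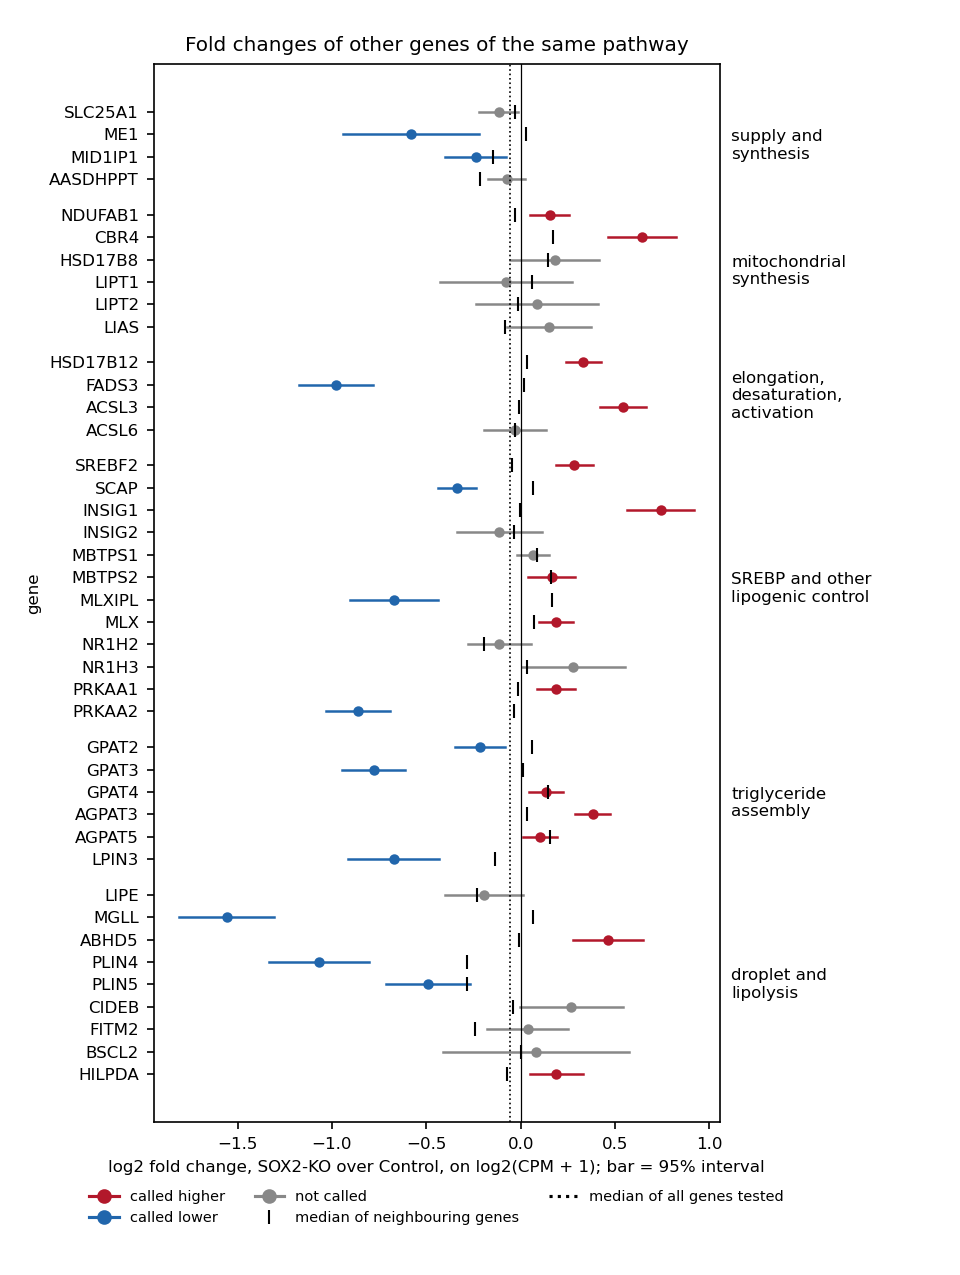
Log2 fold change of SOX2-KO over Control on the log2(CPM + 1) scale (horizontal axis) for the 41 other pathway genes tested, by function, with the 95% interval of the limma fit (bars). Red points were called higher, blue points lower and grey points not called, black ticks give the median of the other genes within 5 Mb and the dotted line the median of all genes tested. The points fall on both sides, with MGLL and PLIN4 farthest to the left and INSIG1 farthest to the right.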

How the data were processed

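The authors deposited 1 table of CPM values with 1 column per library, and each column added up to 1000000 over 16949 Ensembl genes, so depth was scaled by library total alone. Per the submitters' processing notes, which assign no role, the tools were kallisto 0.43.1, Trimmomatic 0.38, STAR, edgeR 3.22.2, FastQC, Picard, SAMtools and CASAVA 1.8, on GRCh38.p12 or hg38. No source used here states the gene filter or the use of strand.

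Groups and replicate numbers came from the sample titles. Identifiers were named and placed on GRCh38 with GENCODE 29 (16010 found there). Between 26.4% and 28.3% of the values per library were whole multiples, within 0.001, of a step taken as 1 read (sought for depths of 15000000 to 35000000), and the estimated depths rest on it. The other values were fractional, so no count model was the main test. limma 3.58.1 in R 4.3.3 (trended prior, group as the only term, two-sided) was run on log2(CPM + 1) for 15927 genes, those averaging 1 CPM or more, and called genes have a Benjamini-Hochberg adjusted p under 0.05 over all of them. Log2 fold changes understate the change of low genes, and folds are ratios of mean CPM. Neighbours are the other tested genes within 5 Mb, at least 10 of them. The fit was tested on simulated data of 15920 genes with 50 changed at each of 1.3, 1.5, 2 and 4-fold. It recovered 82% of the changes at 1.3-fold, 96% at 1.5-fold and 100% at 2 and 4-fold, and called 8 unchanged genes. The changed genes were drawn from those averaging at least 5 CPM, so recovery at lower levels, such as those of PLIN2 and ME1, was not tested. Every simulated gene was given the same relative spread beyond counting noise. Far fewer genes changed there than are called here, so the simulation does not show how the fit does where most genes are called. The files of replicates were compared, and none looked like repeat deposits of 1 library (median chi-square per gene 0.858 to 1.87, against 0.455 from counting noise alone), which does not show that the cultures were separate.

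The genes, lists and tests were chosen with earlier results of these data known. Among the 34 genes, values by library are given for those called with a change of at least 1.5-fold on the log2(CPM + 1) scale and for ACLY, ACACA, FASN, SCD, SREBF1, DGAT1, DGAT2 and PLIN2, and, among the other pathway genes, for INSIG1 and MGLL after their values were seen. From each list of other genes, up to 2 with the smallest p in each direction and the uncalled gene of the highest mean are named. Alternatives were a filter of 5 CPM or none, pseudocounts of 0.1 and 0.5, quantile normalisation, median-ratio scaling, the replicate number as a block, a minimum fold of 1.5, limma-voom on estimated reads, each library left out, and the neighbours' median subtracted. scipy 1.17.1 gave the exact tests.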

Additional observations from a re-analysis of the deposited data

How the results depend on the processing

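All 27 calls among the 34 genes were kept, with their direction, under every alternative except these 3. The test against a minimum fold of 1.5 left 4 genes higher and 1 lower, and of the other pathway genes 0 higher (1 at an unadjusted p under 0.05 in that limma test; 13 called by limma-voom) and 4 lower. A filter of at least 5 CPM removed PLIN2, and the neighbourhood subtraction ended the calls of FADS1, ACSL4 and PLIN2. With single libraries left out, 21 genes rose and 6 to 7 fell, and of the other pathway genes 10 to 12 rose and 11 to 12 fell. Of the other pathway genes called, AGPAT5 alone changed sign, at -0.070 with the neighbourhood subtracted.

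Among the 34 genes, sign changes fell on uncalled genes, and their cause was not tested. With the neighbourhood subtracted the log2 fold change was -0.057 for ELOVL2, -0.12 for LPIN2 and 0.28 for TECR. TECR was at 0.040 with median-ratio scaling and 0.021 with quantile normalisation. Over the libraries left out, it ran from -0.058 to 0.032 for TECR and from -0.0042 to 0.11 for ELOVL7. The log2 difference of the ratio DGAT2/DGAT1 ran from -0.068 to 0.12 (-8.97e-04 with a pseudocount of 0.1) and that of ACSL4/ACSL1 from -0.093 to 0.18.

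Over all genes tested, 3976 rose and 5234 fell, against 4572 and 4512 with median-ratio scaling and 4670 and 4498 with quantile normalisation; the median log2 fold change of all genes moved from -0.06 by less than 0.1. The replicate numbers did not pair the libraries, since deviations of same-numbered libraries correlated at -0.045, 0.038 and -0.014 and only 2 of 6 libraries correlated best with their own number. With the replicate number as a block, 21 of the 34 genes rose and 6 fell, and 13 and 12 of the other pathway genes. Of the 34 genes, PLIN2, AGPAT2 and DGAT2 had the lowest mean CPM in SOX2-KO.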
